A study of Homo sapiens with 3 samples.

Results

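The HDAC1 summits of chromosome 14, one of the chromosomes that the HepG2 line is known to carry in extra copies, were taken from 2 deposited lists as every entry placed on that chromosome in the hg19 build. The untreated control list held 334 of them among 9476 summits, and the list from cells given H89 held 396 among 11553, so 730 of 21029 entries are described here. A summit is the single base at which a peak of sequenced fragments is highest. HDAC1 positions had been profiled by CUT&Tag, in which an antibody guides a transposase that tags nearby DNA, in HepG2 cells, an established human line derived from a liver carcinoma. H89 is a small-molecule inhibitor of PKA, the cAMP-dependent protein kinase, and the comparison asks how the HDAC1 profile differs with it. The groups were wild-type HepG2 cells without H89 and wild-type HepG2 cells with H89, with 1 HDAC1 library each, and the dose and time of H89 are not stated. An IgG library from untreated cells is also labelled and was not analysed here, so no background was measured in this account. Whether the deposited scores were set against it is not stated.

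HDAC1 is a class I histone deacetylase. It removes acetyl groups from histone tails as the catalytic subunit of corepressor complexes such as Sin3, NuRD and CoREST, and it is found both at silenced genes and at active promoters and enhancers, where acetylation turns over. Chromosome 14 is acrocentric: its short arm carries ribosomal RNA gene arrays and satellite repeats and is unsequenced in hg19, so that only the long arm can hold summits. The long arm carries the T-cell receptor alpha and delta genes near the centromere, FOXA1 (a pioneer factor of liver cells) and NFKBIA (the inhibitor of NF-kappaB) in its proximal part, FOS and HIF1A in its middle, and the SERPINA cluster, which encodes alpha-1 antitrypsin and other liver-secreted protease inhibitors, the imprinted DLK1 and MEG3 genes, AKT1 and the immunoglobulin heavy chain genes in its distal part. These places are textbook background. The gene table at hand describes another build, so no summit was assigned to a gene, promoter or exon, and no sequence around a summit is printed.

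Each list gives a score per summit, taken in this account for a −log10 p-value. Because each condition has 1 library, there is no replicate check, and no test of the treatment was possible. Intervals are exact (Clopper-Pearson) 95% intervals that cover counting error only, and they treat summits as independent although neighbours share a library and most sites are in both lists. Read depth is unknown.

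Summits were spread unevenly along the long arm, dense toward the centromere and the telomere and sparse over much of the stretch between. None lay in the short arm or the centromeric bands (19.1 Mb in all). Of the 32 bands in the band table, 26 held at least 1 summit. Band 14q11.2 had the most, with 60 control and 63 H89 summits, or 10.9 and 11.5 per Mb. It holds the T-cell receptor alpha and delta genes and a cluster of olfactory receptor genes, but summits were not assigned to genes. Its stretch from 22000001 to 23000000 held no summit in either list. Band 14q24.3, where FOS lies, followed with 32 and 39 summits (5.82 and 7.09 per Mb), and band 14q12 with 30 and 32 (3.45 and 3.68 per Mb).

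Per Mb, the small distal band 14q32.32, which holds TRAF3, an adaptor of immune receptor signalling, was the densest, at 12.5 control and 17.5 H89 summits per Mb from 10 and 14 summits. Band 14q13.2, where NFKBIA lies, had 11.5 and 13.8 per Mb from 15 and 18 summits. Band 14q32.13, with the SERPINA cluster and the microRNA-processing gene DICER1, had 9.38 and 11.9 per Mb from 15 and 19 summits. Of these 3 bands, 14q32.13 was less dense than 14q11.2 in the control and denser with H89.

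The poorest bands lay in the middle of the arm and in 14q31, and they included light as well as dark ones. The Giemsa-negative bands 14q23.2 and 14q21.2 had 1.11 and 1.35 control summits per Mb, fewer than the dark band 14q21.1 (2.11). Band 14q31.2, also Giemsa-negative, held no summit in either list, and 14q31.3 held 1 control and 3 H89 summits in 4.90 Mb. The longest stretch without a summit of either list ran from chr14:82000381 in 14q31.1 to chr14:88510800 in 14q31.3, which is 6.51 Mb. A second ran for 5.74 Mb within 14q12, from 25287353 to 31027221, and another for 5.46 Mb from 39901961 in 14q21.1 to 45366472 in 14q21.2. Of the 89 windows of 1 Mb from the centromere to the long-arm end, 27 were empty in both lists. The 5 richest windows held 29.9% of control and 27.3% of H89 summits.

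**Figure D1:**
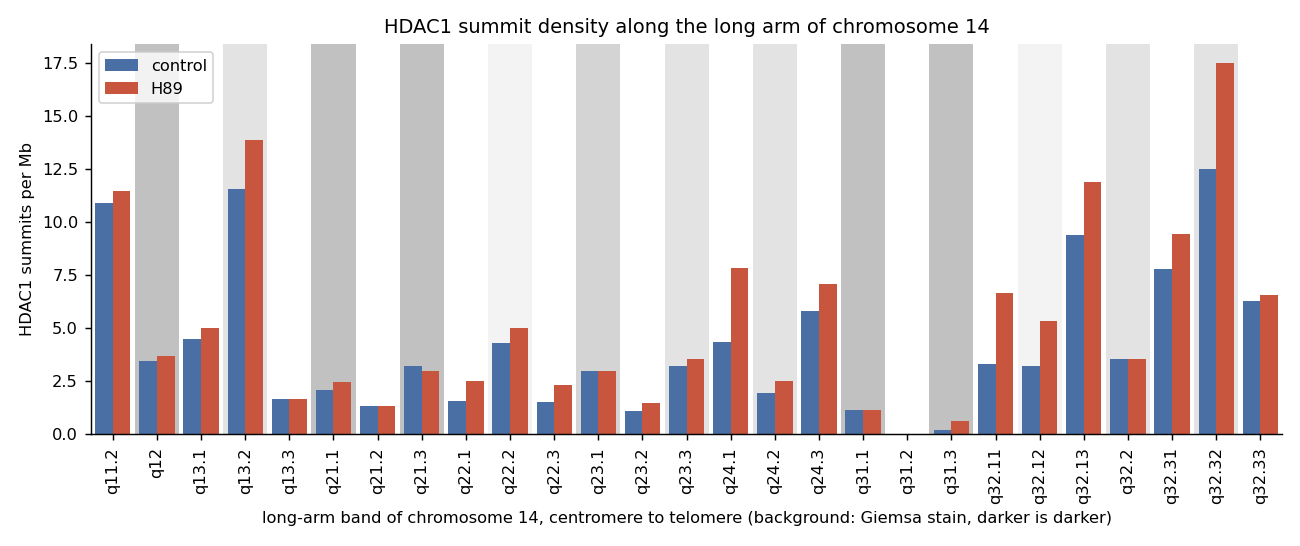
HDAC1 summits per Mb (vertical axis) in the 27 long-arm bands of chromosome 14 beyond the centromeric one, in order from centromere to telomere, for the control list (blue) and the H89 list (red), with the Giemsa stain of each band as background shading. Density is high in 14q11.2 and 14q13.2, mostly low from 14q21 to 14q23 and in 14q31, and high again in 14q32.13 and from 14q32.31 to 14q32.33, with 14q32.32 at 12.5 and 17.5 per Mb. Band 14q32.2, between these, has 3.53 per Mb in both lists.

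The single richest window was chr14:24000001-25000000, across the border of 14q11.2 and 14q12. It held 33 summits in each list, of which 8 in the control and 10 with H89 scored 10 or more. Over all chromosomes, 6.49% of control and 9.89% of H89 summits did. Among the 2897 windows of 1 Mb on the autosomes, this window ranked 3 in the control and 11 with H89 by number of summits. By number of summits scoring 10 or more it ranked 1 in both lists, and no other window had as many. Its choice as the richest window of the chromosome favours a high rank. On chromosome 14 the window from 23000001 to 24000000 followed, with 22 control and 23 H89 summits. The one from 35000001 to 36000000 had 17 and 19.

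Dark Giemsa bands are gene-poor as a rule, and those of chromosome 14 held more summits than dark bands elsewhere. The 5 darkest bands of chromosome 14 had 60 control and 65 H89 summits, 2.20 and 2.38 per Mb, against 0.632 and 0.761 per Mb in the darkest bands of the other autosomes. Among the 17 autosomes with such bands it ranked 2 in both lists, after chromosome 16 (2.69 and 2.58 per Mb). A block at the edge of 14q12 carried part of this. The first 0.687 Mb of 14q12, up to the empty stretch, held 18 control and 19 H89 summits. Without that block the darkest bands of chromosome 14 still had 1.58 control and 1.73 H89 summits per Mb. Giemsa-negative bands had 4.81 and 5.84 per Mb, close to the 4.85 and 5.91 of the other autosomes. Band borders are approximate, and their part in the values of 14q12 was not tested.

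Over its whole length, chromosome 14 was close to average in summit density. It had 3.11 control and 3.69 H89 summits per Mb, against 3.15 and 3.82 on the other 21 autosomes together. The relative density was 0.989 (interval 0.884 to 1.10) in the control and 0.966 (0.872 to 1.07) with H89. Among the 22 autosomes it ranked 9 and 8. The relative density moved with what it was set against. Without centromeric, stalk and variable bands the relative density was 1.12 and 1.09, and per protein-coding gene it was 1.17 and 1.14. Chromosomes 2, 16, 17 and 20, the others known to be gained in HepG2, together had 5.30 and 6.24 summits per Mb, well above chromosome 14. Chromosomes 13 and 15, acrocentric like 14 and of similar length, had 1.03 and 2.50 per Mb in the control and 1.36 and 3.22 with H89.

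Median gaps between summits were shorter than on chromosomes 13 and 15, a difference that was not tested. The median gap between neighbouring summits was 70.5 kb in the control and 63.7 kb with H89, against 208 and 146 kb on chromosome 13 and 101 and 73.6 kb on chromosome 15. In the control, 70 summits (21.0%, interval 16.7 to 25.7) had a neighbour within 5 kb, and with H89 92 did (23.2%, 19.2 to 27.7). Those shares were near the 21.2% and 24.5% of the other autosomes. Only 6 control and 8 H89 summits of chromosome 14 were more than 500 kb from the next.

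Most chromosome 14 sites were listed in both conditions. An H89 summit lay within 1000 bp of 298 of the 334 control summits (89.2%, interval 85.4 to 92.3), where the share over all chromosomes was 87.6%. A control summit lay within 1000 bp of 303 of the 396 H89 summits (76.5%, 72 to 80.6), where it was 72.2% over all chromosomes. Both shares are near the background of their list. Chromosome 14 ranked 4 of 22 autosomes for the first and 2 for the second. On chromosomes 13 and 15 together, 84.8% (80.8 to 88.3) of control summits and 64.9% (60.5 to 69.1) of H89 summits had a partner, so for H89 summits the interval lay wholly below that of chromosome 14. That difference was not tested. Chromosome 15 had the lowest H89 share of the 22 autosomes (64.8%), with chromosome 13 next (65.0%). The other chromosomes gained in HepG2 together had 87.2% (85.9 to 88.5) of control and 74.6% (73.0 to 76.2) of H89 summits with a partner, near chromosome 14.

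Partners sat almost on top of each other. The 295 mutually nearest pairs had a median offset of 49 bp, and 215 of them (72.9%) were within 100 bp, against 54 bp and 70.5% on the other autosomes. Where the mean score reached 10, the median offset was 25.5 bp, and 42 of 48 were within 100 bp. Both lists named the same base in 3 pairs. They lie at 24584104 in 14q11.2, at 45722622 in 14q21.2 and at 94759391 in 14q32.13.

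Sites listed once scored low. The 36 control summits without a partner had a median score of 3.27 and none was above 5.50, whereas the 298 with a partner had a median of 5.50. The 93 H89 summits without a partner had a median of 3.44 and a highest score of 7.66, against a median of 5.49 for the 303 with one. Every summit of chromosome 14 scoring 10 or more, 38 in the control and 51 with H89, had a partner in the other list. This is close to the other autosomes, where 99.8% of control and 98.6% of H89 summits scoring from 10 up to 20 did. Among those scoring from 2 up to 3, 54 of 70 control summits (77.1%) and 38 of 72 H89 summits (52.8%) had a partner, against 74.8% and 46.1% on the other autosomes. Being listed depends on passing a cut-off, and a site missing from one list may still be bound below it.

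The 2 highest H89-only summits both scored 7.66. One lay at chr14:24439300 in 14q11.2, with the nearest control summit 18.4 kb away, and the other at 38016046 in 14q21.1, the band of FOXA1, 41.8 kb from the nearest control summit. The next, at 35515623 in 14q13.2, scored 6.12. Those at 21458194 in 14q11.2 and 32724406 in 14q12 both scored 5.49. Other H89-only summits in more distal bands had the same score, and these were taken as the first by position. The highest control-only summits, at 99741090 in 14q32.2 and 102038605 in 14q32.31, both scored 5.50 and lay 41.7 kb and 159 kb from an H89 summit. The summits at 93372391 and 94421989 in 14q32.12 scored 4.77, and that at 24107335 in 14q11.2 scored 4.18, with an H89 summit 1386 bp away, just outside the pairing distance. None of these 10 scores reached 10.

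These scores can be read as small counts. A score of 5.50 in the control equals the Poisson chance of 3 or more counts at a mean of 0.0269, and 5.49 with H89 the same step at a mean of 0.0271. On that ladder of steps, 38 control summits of chromosome 14 sat at a count of 2, 47 at 3, 15 at 4 and 11 at 5. With H89 the numbers were 48, 55, 15 and 14. A score of 7.66 with H89 is the step of 4 counts and 9.92 that of 5. A second ladder, at means of 0.0473 and 0.0477, held 65 control and 77 H89 summits. Both of the highest H89-only calls thus sit at the step of 4 counts. The means were fitted to the scores and do not come from the labels.

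High-scoring summits made up a larger share of the control list on chromosome 14 than on any other autosome. In the control, 38 of 334 (11.4%, interval 8.18 to 15.3) scored 10 or more, where the share over all chromosomes was 6.49%. The next autosome was chromosome 20, at 8.92% (6.42 to 12), whose interval overlaps. With H89, 51 of 396 (12.9%, 9.74 to 16.6) scored 10 or more, where the share over all chromosomes was 9.89%, and chromosome 16 followed closely at 12.3%. At 20 or more, chromosome 14 had 8 control summits (2.40%, 1.04 to 4.66), the largest number of any autosome, where the share over all chromosomes was 0.686%. With H89 it had 10 (2.53%, 1.22 to 4.59), where that share was 1.4%, and chromosome 20 was higher at 3.19%. The differences between chromosomes were not tested.

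**Figure D2:**
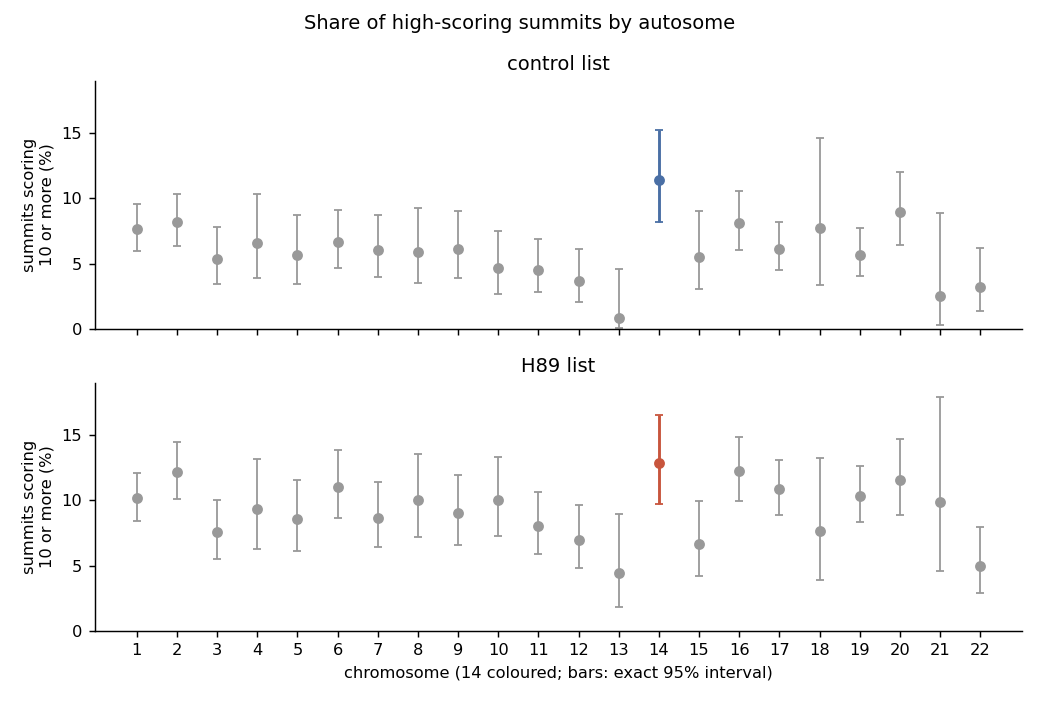
Share of summits scoring 10 or more (vertical axis, percent) on each of the 22 autosomes in the control list (top) and the H89 list (bottom), with exact 95% intervals and chromosome 14 in colour. Chromosome 14 is highest in both lists, at 11.4% and 12.9%, and stands further from the rest in the control than with H89.

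The highest-scoring sites of chromosome 14 lay at both ends of the long arm. At chr14:24584104 in 14q11.2, inside the richest window, the shared summit base scored 35.3 in the control and 40.5 with H89. At the distal end, in 14q32.33, the summit at 105219236 scored 37.1 in the control and the one at 105219224 scored 37.0 with H89. That is no difference at the limit of 0.1 used here. The site in 14q11.2 was higher with H89 by 5.22, and the one in 14q32.33 had the highest control score of the chromosome.

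Another site of 14q11.2, with summits at 20811511 (control) and 20811526 (H89), scored 27.5 and 35.6. The pair at 35451964 and 35451971 in 14q13.2 scored 26.7 and 35.2. The pair at 96001168 and 96001189 in 14q32.13 scored 22.2 and 37.0. The last had the largest difference toward H89 of all pairs on the chromosome (14.84). Of these 5 sites, 3 were in the bands 14q11.2 to 14q13.2.

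The other 2 bands with the most summits peaked lower. In 14q12, the highest control summit was at 24616271 (score 17.9) and the highest H89 summit at 24768847 (score 21.0), both within the dense block at the edge of the band. In 14q24.3, where FOS lies, the highest control summit was at 77506765 and the highest H89 summit at 75536183, both with a score of 14.7. Each of these 4 had a partner in the other list. Band 14q32.32, the densest per Mb, held no summit scoring 10 or more in either list, nor did 14q32.31 or 14q32.12. The median score of 14q32.32 was 4.77 in the control and 4.50 with H89, against 6.70 and 6.41 in 14q13.2.

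Large differences went in both directions. One pair of 14q11.2 had a control summit at 23771255 (score 3.35) and an H89 summit at 23771006 (score 14.5), a difference of 11.2. A pair in 14q21.1 scored 16.2 at 39901958 and 27.0 at 39901961, a difference of 10.8, and it stands at the edge of one of the long empty stretches. In the other direction, the summit at 35016463 in 14q13.1 scored 16.9 in the control and the one at 35016468 scored 9.36 with H89. In 14q32.13, 94812659 scored 13.8 in the control and 94812683 scored 8.14 with H89. In 14q12, 24682540 scored 10.8 and 24682502 scored 5.95. In band 14q32.13, therefore, 1 site scored far higher with H89 and another lower, and neither was assigned to a gene.

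**Figure D3:**
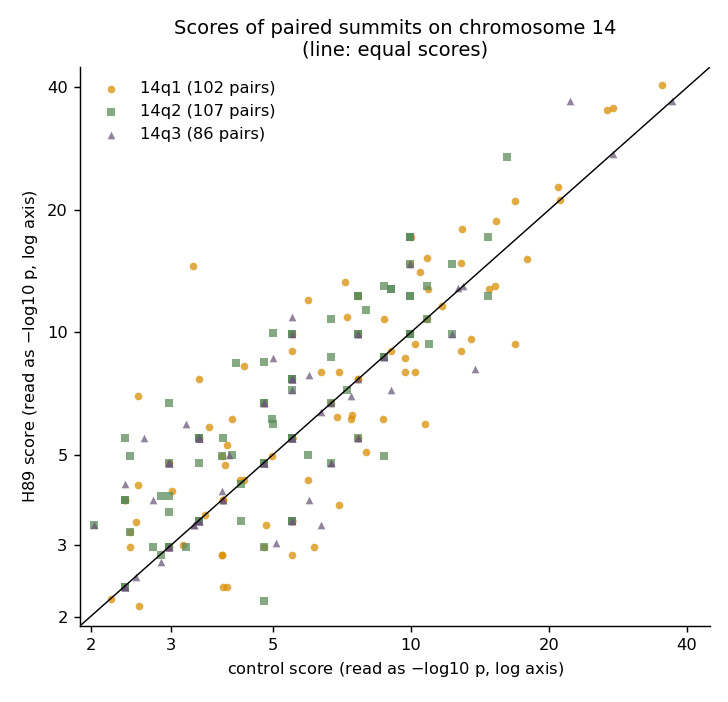
Scores of the 295 paired summits of chromosome 14 in the control (horizontal, log axis) and with H89 (vertical, log axis), coloured by long-arm region, with a line at equal scores. Many points coincide because scores take few values. In 14q1, 32 pairs are below the line by more than 0.1, more than in 14q2 (16) or 14q3 (14).

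Over all pairs, scores were more often higher with H89 than in the control. Of the 295 pairs, 139 (47.1%, 41.3 to 53.0) exceeded 0.1 in the direction of H89, where the share over all chromosomes was 50.2%. In the control 62 scored higher (21.0%, 16.5 to 26.1), where it was 14.5% over all chromosomes, and 94 were within 0.1. The share higher in the control was the largest of the 22 autosomes, with chromosome 4 next at 20.2%. Its interval did not overlap that of the other autosomes together (14.4%, 13.6 to 15.2), and the difference was not tested. The subset of 48 pairs averaging 10 or more included 30 that were higher with H89 (62.5%, 47.4 to 76.0), where the share over all chromosomes was 75.4%, and 11 in which the control was higher (22.9%, 12 to 37.3), against 10.7% on the other autosomes. The median difference of those 48 pairs was 2.33, against 2.56 on the other autosomes.

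Chromosome 14 had more summits with H89, and the ratio rose less with the minimum score than on the other autosomes. Over all summits the ratio of H89 to control was 1.19 (1.02 to 1.38), against 1.21 (1.18 to 1.25) on the other autosomes. At a score of 5 or more it was 1.19 (0.962 to 1.48), against 1.34 (1.28 to 1.40), and at 10 or more 1.34 (0.865 to 2.10), against 1.88 (1.69 to 2.09). Chromosome 14 had the lowest ratio of the 22 autosomes at both of these minimum scores. At 20 or more it had 8 and 10 summits, a ratio of 1.25 (0.444 to 3.64), against 2.72 (1.98 to 3.79). The intervals of chromosome 14 contain the values of the other autosomes at each of these scores, so a difference was not detectable with these numbers.

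**Figure D4:**
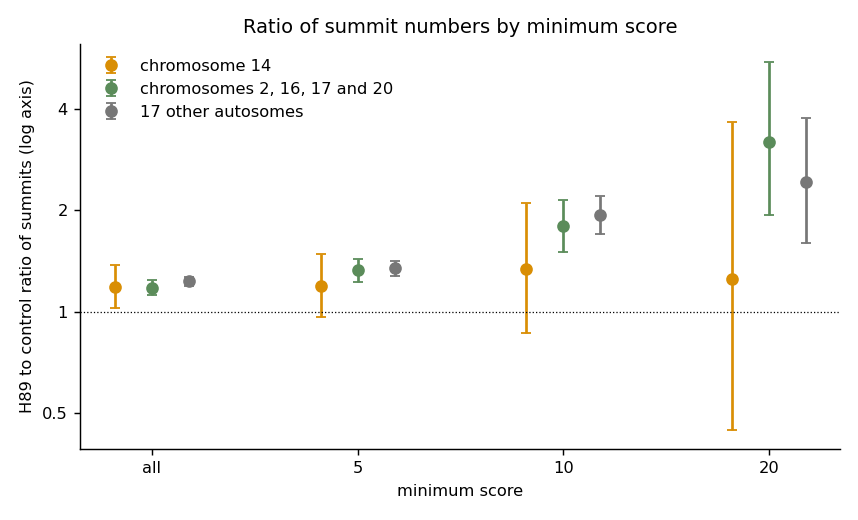
H89 to control ratio of summit numbers (vertical, log axis) for all summits and at minimum scores of 5, 10 and 20, on chromosome 14, on the 4 other chromosomes gained in HepG2 and on the 17 other autosomes, with exact 95% intervals. The ratio of chromosome 14 stays between 1.19 and 1.34 while the other groups rise above 2 at a score of 20, and its intervals are wide.

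Single bands mostly followed the chromosome. With H89, 20 bands held more summits, 1 held fewer and 5 held the same number. The largest increases in number were in 14q24.1 (10 control and 18 H89 summits), 14q32.11 (7 and 14), 14q24.3 (32 and 39) and 14q32.12 (9 and 15). A control partner was found for 9 of 18 H89 summits in 14q24.1 (50%), 8 of 14 in 14q32.11 (57.1%) and 7 of 15 in 14q32.12 (46.7%). In 14q24.3 it was found for 29 of 39 (74.4%) and in 14q11.2 for 53 of 63 (84.1%). Over all chromosomes the share was 72.2%. That value lay within the intervals of 14q24.1 (26.0 to 74.0), 14q32.11 (28.9 to 82.3) and 14q32.12 (21.3 to 73.4). In bands chosen for their surplus of H89 summits, a low share was partly fixed in advance, because few control summits could be partners. The 1 band with fewer was 14q21.3, with 12 and 11. In none of the bands did the interval of the ratio exclude 1 or the ratio of the whole chromosome. These bands were picked out after their values were seen.

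The long arm is divided by cytogeneticists into region 1 (bands 14q11 to 14q13), region 2 (14q21 to 14q24) and region 3 (14q31 and 14q32), written 14q1, 14q2 and 14q3. The proximal region, 14q1, stood apart from the other 2 in several measures, none of which could be tested across replicates. In its 18.7 Mb it held 116 control and 125 H89 summits, 6.20 and 6.68 per Mb. The 41.5 Mb of 14q2 held 118 and 144 (2.84 and 3.47 per Mb), and the 28.0 Mb of 14q3 held 100 and 127 (3.57 and 4.53 per Mb). The ratio was 1.08 (interval 0.830 to 1.40) in 14q1, 1.22 (0.95 to 1.57) in 14q2 and 1.27 (0.970 to 1.67) in 14q3, with overlapping intervals. This division was made after the values were seen.

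High scores were concentrated in 14q1. There, 23 of 116 control summits (19.8%, interval 13 to 28.3) scored 10 or more, against 15 of 218 (6.88%, 3.90 to 11.1) in the rest of the arm. With H89 the numbers were 25 of 125 (20%, 13.4 to 28.1) and 26 of 271 (9.59%, 6.36 to 13.7). Outside 14q1, the shares were thus near the 6.49% and 9.89% of the whole lists. With H89 this joined 13.2% in 14q2 and 5.51% in 14q3. Most of the 14q1 summits scoring 10 or more lay in its first 2 bands, which also held most of its summits. In the control there were 9 of 60 in 14q11.2 (15%) and 9 of 30 in 14q12 (30%). Bands 14q13.1 and 14q13.2 had 2 of 9 (22.2%) and 3 of 15 (20%). With H89 these bands had 11 of 63 (17.5%), 9 of 32 (28.1%), 0 of 10 and 4 of 18 (22.2%). Band 14q13.3 had 1 of 2 with H89. Without the richest window, 15 of 83 control summits (18.1%) and 15 of 92 H89 summits (16.3%) of 14q1 scored 10 or more.

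Apart from a higher H89 share scoring 10 or more, region 14q2, home of FOS and HIF1A, was near the whole lists in these measures. It had 8 control and 19 H89 summits scoring 10 or more, which is 6.78% (2.97 to 12.9) and 13.2% (8.13 to 19.8), where the lists had 6.49% and 9.89%. Of its 107 pairs, 58 (54.2%) favoured H89 and 16 (14.95%) favoured the control, where the shares over all chromosomes were 50.2% and 14.5%. In 14q3 there were 7 such summits in each list, and 34 of 86 pairs (39.5%) favoured H89, 14 (16.3%) favoured the control and 38 were within 0.1. The intervals of these shares overlap between 14q2 and 14q3.

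Pairs that scored higher in the control were also concentrated in 14q1. Of its 102 pairs, 32 (31.4%, interval 22.5 to 41.3) were higher in the control, and 47 (46.1%) had the higher score with H89, whereas in the rest of the arm 30 of 193 (15.5%, 10.7 to 21.4) were higher in the control. Without 14q1 the chromosome was thus near the 14.5% of all pairs. By band, 19 of 51 pairs in 14q11.2 were higher in the control (37.3%), and 8 of 27 in 14q12 (29.6%). Bands 14q13.1 and 14q13.2 had 3 of 8 (37.5%) and 2 of 14 (14.3%). Without the richest window, 22 of 75 pairs of 14q1 (29.3%) were higher in the control.

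Scores in 14q1 also fell less often on the common steps. In the control, 69.0% of its summits lay on neither ladder, against 31.4% in 14q2, 34.0% in 14q3 and 37.4% on the other autosomes. With H89 the shares were 64.8%, 29.9%, 37.0% and 37.7%. On this reading, a score off both ladders means that neither fitted mean was the background used for that summit. In 14q1, 23 of 102 pairs were within 0.1, against 71 of 193 in the rest of the arm. The next autosomal regions by control scores off both ladders were 19p1 (62.3%) and 16p1 (62.1%). There 12.8% and 14.6% of pairs were higher in the control. The part of scores off the ladders in the share of pairs higher in the control was not tested.

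Among the 53 cytogenetic regions of the autosomes with at least 50 control summits, 14q1 ranked 1 in the share scoring 10 or more in both lists, 1 in the share of pairs higher in the control and 1 in the share of scores off both ladders in both lists. The next region for control scores of 10 or more was 2p2, at 11.4%, and the median of the others was 5.90%. For pairs higher in the control, 15q1 was next at 26.7%, and the median was 14.5%. For scores off both ladders, 19p1 was next at 62.3%. In the H89 to control ratio 14q1 ranked 52 of 53. These ranks describe 1 pair of libraries, and the region was singled out after its values were seen.

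**Figure D5:**
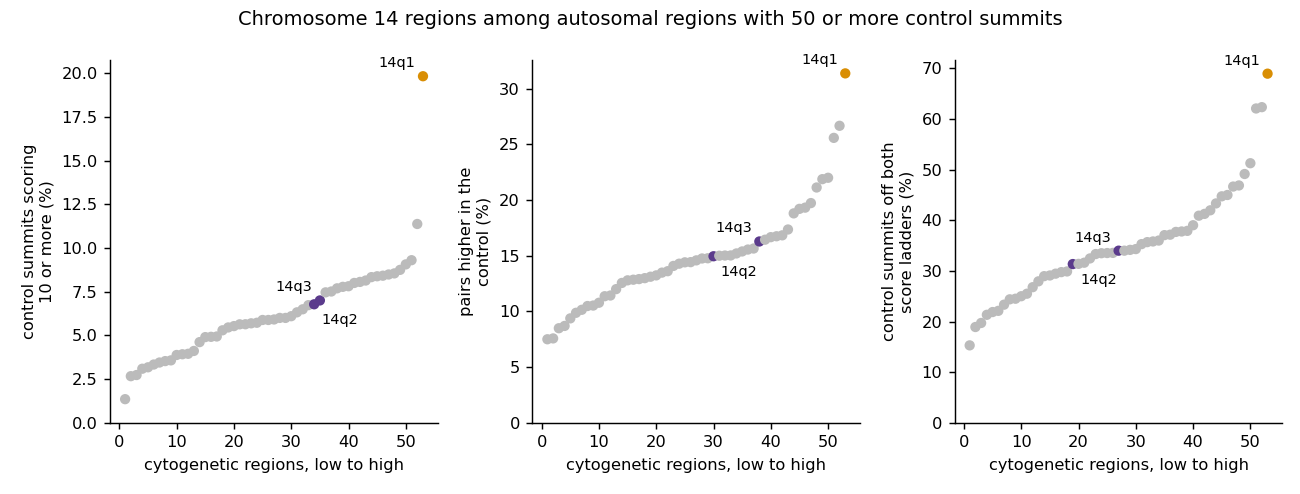
Share of control summits scoring 10 or more (left), share of pairs scoring higher in the control (middle) and share of control summits off both score ladders (right), all in percent, for 53 autosomal cytogenetic regions with at least 50 control summits, each panel ordered from low to high. Region 14q1 is the highest point in each panel, at 19.8%, 31.4% and 69.0%, while 14q2 and 14q3 lie among the other regions.

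DNA copy number was not measured here. The gain of chromosome 14 is taken from what is known of HepG2 and not from these files, and neither its extent along the arm nor its part in any of these values was tested.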

How the data were processed

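CUT&Tag libraries of HepG2 cells were aligned with Bowtie 0.12.2 to hg19, per the submitters' processing notes. The authors deposited 1 list per HDAC1 library, without a header, with a 1-bp summit and a score that is read here as a −log10 p-value, from the values. Peaks were called per library, per the peak names. The peak caller, its threshold and its control are, in the sources used here, not given. Peak names assigned each list to its library. Neither name equals its sample title: one holds the word control, and the other a form close to, but not the same as, the word treated.

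Summits were placed in the hg19 bands of circlize 0.4.16 (R 4.3.3). A partner is a summit of the other list within 1000 bp. Pairs are mutually nearest summits, and score differences up to 0.1 count as equal. Intervals of ratios come from the exact binomial interval for the proportion of H89 summits. Score ladders are −log10 Poisson upper tails matched within 0.001, at a mean fitted to the commonest score between 5 and 6 and a second fitted to the commonest remaining score between 4 and 5. Protein-coding genes per chromosome come from a GRCh38.p14 table. Named summits are the 5 highest pairs, the 3 largest differences in each direction, the 5 highest unpartnered summits per list, the highest summit per list in the 3 bands with the most summits, and the longest empty stretch. Ties among unpartnered summits were taken by position. Other named bands, windows, stretches and regions were picked after their values were seen. The members and lists were chosen with earlier results of these data known. Functions were tested on simulated data. Alternatives varied distance, minimum score, merging, list length, tie limit, denominator and reference chromosomes. Computations used Python 3.11.15 (scipy 1.17.1, numpy 2.4.6, pandas 2.3.3) and figures matplotlib 3.10.9.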

Additional observations from a re-analysis of the deposited data

How the results depend on the processing

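The share of control summits with a partner (89.2%) was 0.898% on the identical base and 64.4% within 100 bp. It was 85.2% and 73.7% when both lists were cut to summits scoring at least 5 and 10. A partner then had to reach that score too. The share was 78.2% when each list was cut to its 4738 top summits. For H89 summits (76.5%) it was 0.758%, 54.3%, 71.5% and 54.9% under the first 4 of these. Pairs higher with H89 (47.1%) made up 66.7% for the 3 pairs on the identical base and 60.7% where both summits scored at least 10. The H89 to control ratio (1.19) was 1.01 for those top summits. The relative density in the control (0.989) was 1.15 at a score of at least 5, 1.80 at 10, 1.12 without centromeric, stalk and variable bands, 1.17 per protein-coding gene, 0.588 against the other gained chromosomes, 1.15 against the autosomes not gained and 1.81 against chromosomes 13 and 15. With H89 (0.966) it was 1.29 at a score of at least 10, 1.09 by band type, 1.14 per gene, 0.591, 1.11 and 1.65. Without bands 14q11 to 14q13, an alternative chosen after seeing the data, the share scoring 10 or more was 6.88% in the control and 9.59% with H89. The other alternatives, including distances of 500 and 2000 bp and other tie limits, stayed within the interval of the reported value. So did merging within 500 bp, but it joined no chromosome 14 summits and could not change their shares or ratio. No paired analysis was possible because each condition has a single library. Unknown depth limits all values.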
